A study of Mus musculus with 8 samples.

Results

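Wnt signals were read here as a set of 47 mouse genes: the Wnt ligands, their Frizzled and Lrp receptors, secreted inhibitors, the secretion factors Porcn and Wls, and Ctnnb1, Lef1, Axin2, Nkd1 and Nkd2 inside the cell. The genes were picked out by symbol from the platform annotation of the arrays, but the set was chosen with earlier results of these data known. Where a gene had several transcript clusters, the brightest stood for it, which uses the measured values. The members are 47 of 19938 named genes, and 45 of them passed the brightness filter and were tested among 15174 genes. Wnt1 and Wnt8b were not tested. Tcf7 and Sfrp3, which the rule also names, have no row with that single symbol and are not among the 47. Sfrp3 is another name of Frzb, which was tested with the genes outside the 47. Frzb differed by -0.029 (limma adjusted p = 0.9995).

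RNA came from the whole skin, in full thickness, of embryos at E17.5. Each of 4 arrays carried RNA of a PpargΔ/Δ embryo (PPARgamma null in the labels) and each of 4 arrays RNA of a control embryo, wildtype for PPARgamma. All 8 embryos had the mixed C57BL6/SV129 background and no treatment is named. The labels give no litter and no sex, and they do not say which part of Pparg was deleted, so p-values measure the spread between these RNAs. Values are log2 expression values, and differences are the arrays labelled Pparg null minus control.

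Wnt proteins are secreted lipid-modified signals. They bind a Frizzled receptor together with the co-receptor Lrp5 or Lrp6, which halts the destruction of beta-catenin, and beta-catenin then activates target genes together with Lef1 and other TCF factors. In embryonic skin this signal starts hair follicle placodes and specifies dermal cells, and in cultured mouse preadipocytes it holds back adipocyte differentiation, the process that PPARgamma drives.

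Array medians lay between 6.93 and 6.96. Xist, used below as a covariate, read 12.24 and 12.27 on control arrays 1 and 4. It read 12.17 and 12.10 on labelled-null arrays 3 and 4, and 4.86 to 5.39 on the other arrays. High and low arrays thus occurred in both groups. The Pparg cluster (10540897) read 8.98 to 9.19 on the arrays labelled Pparg null and 8.79 to 9.06 on control arrays. It was therefore not lower on the arrays that carry the null label, and each group is called by its label below. Of 72 marker genes in 8 lists for cell types of skin, 70 passed the filter, among them all 8 for epidermis and all 8 for dermal fibroblasts. Adipoq and Cfd of the white adipocyte list did not.

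No Wnt gene passed the test. In limma 0 of 45 tested members had an adjusted p under 0.05, where 18 of all 15174 tested genes (0.119%) did. At an unadjusted p under 0.05 there was 1 member, the receptor Fzd4, or 2.22% of members beside 3.61% of all genes. In 0 of 45 members were the 4 values labelled Pparg null all above or all below the 4 control values, which was the case for 2.45% of all genes. The median difference was -0.026 over the members and -0.00058 over all genes, and 30 members lay below control and 15 above, where 50.3% of all genes lay below. Leaving out 1 array in turn gave medians of -0.040 to -0.0084.

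The differences were small, and the intervals were about as wide as those of all genes. The median half-width of the 95% confidence interval was 0.153 over the members and 0.152 over all genes. The members' differences ran from -0.43 for Fzd4 to 0.14 for Dkk1, and their median size, regardless of sign, was 0.051, beside 0.045 over all genes. For 43 of 45 members (95.6%) the interval lay inside a 1.5-fold change in both directions, beside 98.1% of all genes. For 29 members it lay inside 0.25 on the log2 scale, as it did for 10694 of all 15174 genes. Among members the exceptions at 1.5-fold were Fzd4 and Fzd7. Only these 2 members differed by more than 0.2 in size, as did 2.93% of all genes.

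**Figure D1:**
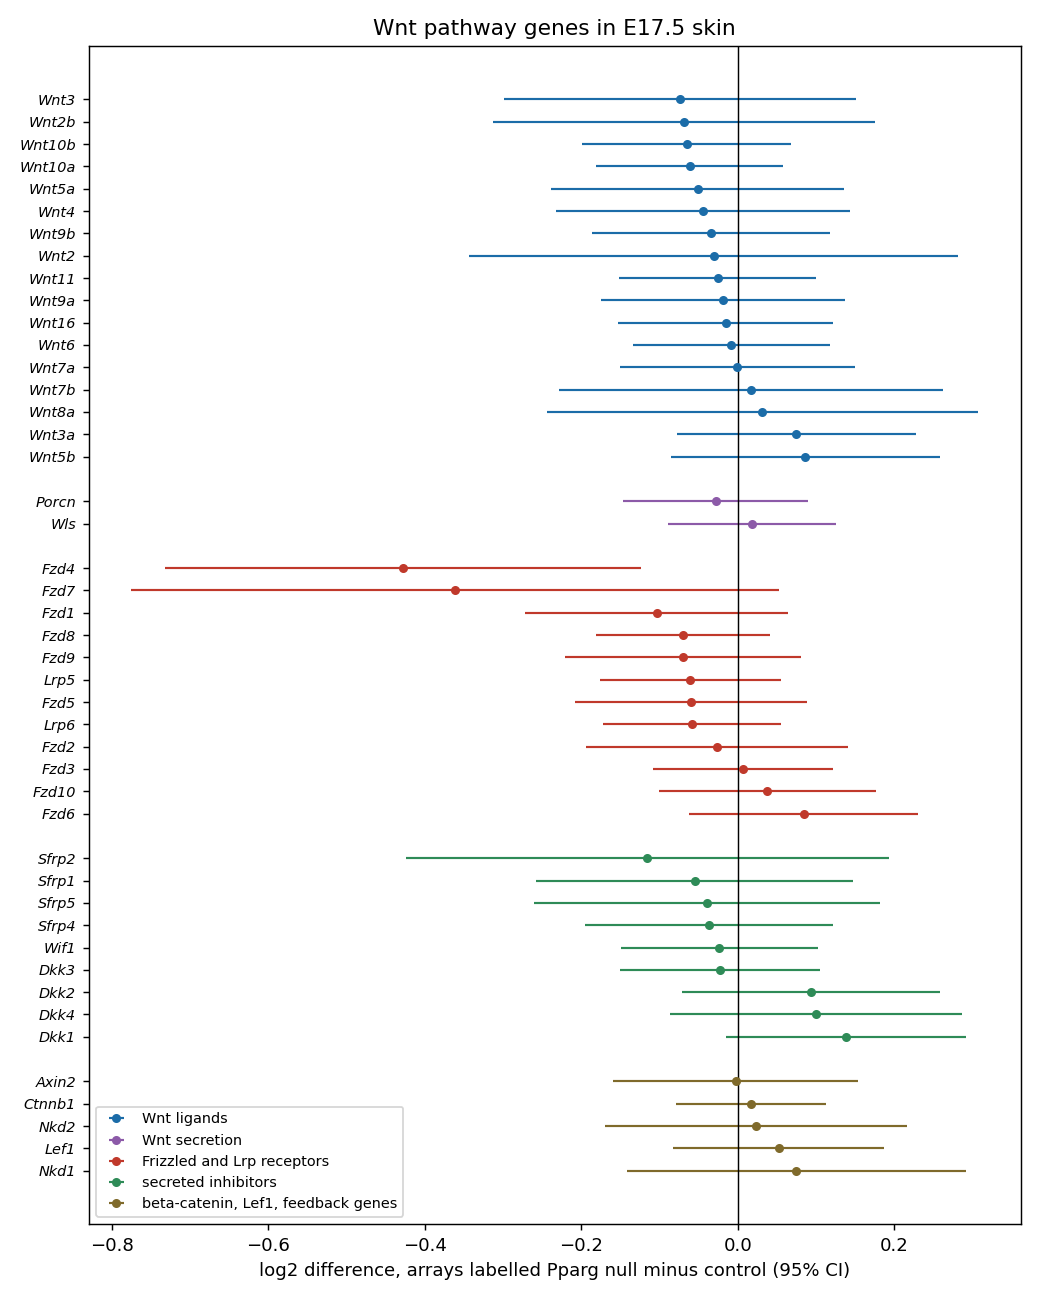
Difference of each tested Wnt gene (points, log2 units, arrays labelled Pparg null minus control) with its 95% confidence interval from limma (bars), grouped by role. All intervals but that of Fzd4 include 0, and Fzd4 and Fzd7 reach farthest to the left.

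Of the 17 tested ligands, 13 lay below control and 4 above, none past the threshold (median -0.026, range -0.074 to 0.086). The smallest unadjusted p in limma among them belonged to Wnt10a, a ligand of ectodermal appendages, at 0.277. Wnt10a read 7.82, 7.72, 7.80 and 7.85 on the arrays labelled Pparg null, against 7.86, 7.94, 7.77 and 7.86 on control arrays. Its values overlapped, and the difference was -0.062 with a 95% confidence interval of -0.18 to 0.058.

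Wnt10b, a ligand of the early hair placode that also restrains adipocyte differentiation in mouse preadipocytes, read 7.72, 7.66, 7.59 and 7.48 on the arrays labelled Pparg null, against 7.65, 7.66, 7.73 and 7.67 on control arrays. The lowest of the 8 values was on labelled-null array 4, and the 2 highest were on control array 3 and labelled-null array 1. The difference was -0.065 (95% confidence interval -0.20 to 0.068), with -0.021 without labelled-null array 4 and -0.10 without labelled-null array 1.

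Wnt5b, a ligand close to Wnt5a, read 7.13, 7.12, 6.96 and 7.03 on the arrays labelled Pparg null, against 7.18, 6.95, 6.87 and 6.89 on control arrays. Control array 1 held the highest of all 8 values and the other control arrays held the 3 lowest. The difference was 0.086 (95% confidence interval -0.086 to 0.26; exact permutation p = 0.286), and 0.16 without control array 1, with a limma adjusted p of 0.996.

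The other ligands stayed near 0 on the log2 difference scale. Wnt5a, which signals mainly without beta-catenin, differed by -0.051, and Wnt11, another such ligand, by -0.026. Wnt4 was read by 2 transcript clusters that lay on the same side, with differences of -0.045 and -0.099. Wnt3 differed by -0.074 and Wnt3a by 0.075. Wnt7b differed by 0.016; labelled-null array 4 stood at 8.43 and the rest of its group at 7.88 to 8.04, against 7.97 to 8.14 on control arrays. Wnt2 had the widest interval among the ligands, -0.34 to 0.28. Wnt8a lay at the edge of the filter, with 6 of 8 arrays above it. Wnt1 read 4.92 to 5.22 on the arrays labelled Pparg null and 4.81 to 5.09 on control arrays, and Wnt8b read 4.99 to 5.28 on the arrays labelled Pparg null and 4.95 to 5.13 on control arrays, all below the filter level of 5.62 to 5.67.

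RefSeq promoters (GRCm38.p6) were found for 32 of the 47 genes, as 39 start sites, and the 250 bases before each start were searched on both strands for the TCF/LEF motif, the letters CTTTG followed by AT, TT, AA or TA. It was present in 5 of 39 member promoters (12.8%), beside 14.8% of all 32851 promoters. An exact direct repeat of AGGTCA with a spacing of 1 base, a full match to the DR1 motif of PPAR and RXR pairs, was also searched. It was present in 0 of the 39 and in 11 of all promoters (0.0335%). So rare a match cannot tell whether these promoters hold PPAR sites, and looser matches were not searched. The stretches with a TCF/LEF match are shown because the motif is the one through which beta-catenin reaches its targets; capitals mark the match, and each stretch runs 5′ to 3′ on the strand of its gene. Of the ligands, Wnt5b held it 71 bases and Wnt11 51 bases before the start.
Wnt5b, chr6:119449429-119449479, minus strand: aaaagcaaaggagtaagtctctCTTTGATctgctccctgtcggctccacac
Wnt11, chr7:98835039-98835089, plus strand: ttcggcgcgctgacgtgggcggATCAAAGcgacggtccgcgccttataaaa

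Neither of the 2 secretion factors passed the threshold, and both had narrow intervals. Wls carries Wnt proteins to the cell surface. It read 10.62, 10.70, 10.62 and 10.58 on the arrays labelled Pparg null, against 10.58, 10.58, 10.66 and 10.62 on control arrays, a difference of 0.018 (95% confidence interval -0.089 to 0.12). Porcn is the enzyme that attaches the lipid to Wnt proteins. It read 7.62, 7.78, 7.62 and 7.73 on the arrays labelled Pparg null, against 7.70, 7.70, 7.70 and 7.76 on control arrays, a difference of -0.028 (95% confidence interval -0.15 to 0.090). The arrays labelled Pparg null held both the 2 lowest values and the highest value of Porcn.

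Among the receptors, Fzd4 and Fzd7 stood below control by more than any other member, and neither passed the threshold over all genes. Of the 12 tested receptors 9 lay below control and 3 above (median -0.060). Fzd4 is a Frizzled receptor that also binds Norrin in mouse retinal vessels. It read 9.19, 9.05, 9.29 and 8.67 on the arrays labelled Pparg null, against 9.21, 9.57, 9.58 and 9.55 on control arrays. The groups overlapped through control array 1, which lay below labelled-null array 3, and labelled-null array 4 held the lowest value.

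Fzd4 averaged 9.05 ± 0.27 on the arrays labelled Pparg null and 9.48 ± 0.18 on control arrays (log2 values, SD, n = 4 each). The difference was -0.43 (SE 0.14, 95% confidence interval -0.73 to -0.12), or 1.34-fold lower. The limma p was 0.0108 and the adjusted p 0.9995. In an exact two-sided permutation over the 70 assignments of 8 arrays the p was 0.0571, with 0.0286 the smallest possible. By unadjusted p, Fzd4 ranked 148 of 15174 genes. It lay below control in every fit tried, though several of these fits cannot change the difference. With 1 array left out it ran from -0.52 to -0.30. The value nearest 0 came without labelled-null array 4 and the farthest without control array 1, where the limma p was 0.00366 and the adjusted p 0.751. Without both arrays it was -0.39, with a limma p of 0.000467 and an adjusted p of 0.221. Each of these arrays held the lowest Fzd4 value of its group, so leaving them out narrows the spread. The p-values without them are therefore no support for a difference.

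Fzd7, another Frizzled receptor, read 8.84, 8.76, 8.97 and 8.33 on the arrays labelled Pparg null, against 8.66, 8.89, 9.40 and 9.38 on control arrays. Control arrays 3 and 4 were high, labelled-null array 4 was low, and the other 5 values lay together across both groups. The difference was -0.36 (SE 0.19, 95% confidence interval -0.78 to 0.053; exact permutation p = 0.229; limma adjusted p = 0.9995). It ran from -0.50 without control array 1 to -0.23 without labelled-null array 4. The promoter of Fzd7 held a TCF/LEF match 130 bases before the start.
Fzd7, chr1:59481995-59482045, plus strand: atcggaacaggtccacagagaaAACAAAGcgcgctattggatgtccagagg

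Markers of skin cell types are given beside Fzd4 and Fzd7. Each value here averages whole skin, so fewer cells of a type and less RNA per cell cannot be told apart. The mean over the 10 tested white adipocyte markers of 12 was 7.77 to 7.95 on the arrays labelled Pparg null and 8.22 to 8.49 on control arrays, with 10 of 10 below control and Cd36, Fabp4, Lpl and Aqp7 past the limma threshold. Its lowest control value, 8.22, was on control array 1, the array with the lowest Fzd4 of its group, but on labelled-null array 4, where Fzd4 was lowest, it read 7.78, between 7.77 on array 1 and 7.79 on array 2 of that group. The mean over 10 hair germ and matrix markers was 8.28 to 8.62 on the arrays labelled Pparg null and 8.45 to 8.79 on control arrays, with 10 of 10 below control, 0 past the threshold in limma and 0 at an unadjusted p under 0.05. In each group its lowest value was on the array with the lowest Fzd4 and the lowest Fzd7, labelled-null array 4 and control array 1. The same held for the means over 10 dermal papilla and condensate markers (8.43 to 8.75 on the arrays labelled Pparg null and 8.52 to 8.77 on control arrays) and over 8 skeletal muscle markers (10.76 to 11.23 on the arrays labelled Pparg null and 10.88 to 11.12 on control arrays), so it was not particular to the hair germ list. The mean over 8 endothelium markers was 9.24 to 9.29 on the arrays labelled Pparg null and 9.19 to 9.33 on control arrays. The part of these cells in the Fzd4 and Fzd7 values was not tested.

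**Figure D2:**
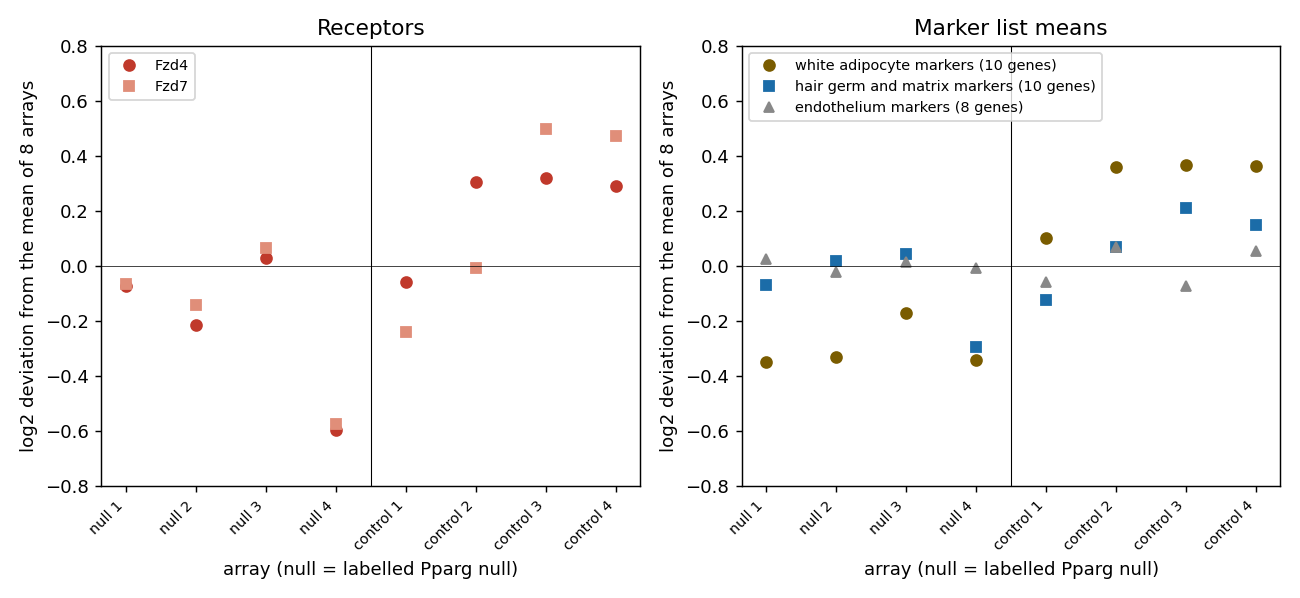
Left, Fzd4 and Fzd7 on each array; right, the means of 3 marker lists, all as log2 deviations from the mean of 8 arrays (null = labelled Pparg null). On control array 1 the white adipocyte mean is 8.22, beside 8.48 to 8.49 for the rest of that group, and Fzd4 is 9.21, beside 9.55 to 9.58.

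The remaining receptors and both co-receptors lay closer to control. Fzd8, a Frizzled receptor, read 7.31, 7.31, 7.36 and 7.39 on the arrays labelled Pparg null, against 7.36, 7.42, 7.38 and 7.50 on control arrays. The difference was -0.071 (95% confidence interval -0.18 to 0.041). Lrp6, the main co-receptor of the beta-catenin branch, read 9.75, 9.85, 9.80 and 9.70 on the arrays labelled Pparg null, against 9.81, 9.88, 9.85 and 9.79 on control arrays, a difference of -0.059 (95% confidence interval -0.17 to 0.055). Its relative Lrp5 differed by -0.061. Fzd6, which orients hairs in mouse skin, lay 0.084 above control (95% confidence interval -0.062 to 0.23), and Fzd3, its partner in neural planar polarity, differed by 0.0065. Fzd1, Fzd2, Fzd5 and Fzd9 differed by -0.10, -0.027, -0.060 and -0.070, and Fzd10 by 0.038.

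No secreted inhibitor passed the threshold. Of 9 tested, 6 lay below control and 3 above (median -0.024); the 3 above were Dkk1, Dkk2 and Dkk4 of the Dickkopf family, which act at Lrp5 and Lrp6. Dkk1, which blocks hair placodes when overproduced in mouse epidermis, read 8.50, 8.57, 8.46 and 8.70 on the arrays labelled Pparg null, against 8.55, 8.42, 8.33 and 8.40 on control arrays. All but control array 1 of the control values lay below the whole labelled-null group. The difference was 0.14 (SE 0.068, 95% confidence interval -0.015 to 0.29; exact permutation p = 0.114; limma adjusted p = 0.9995), and 0.18 without control array 1, with a limma adjusted p of 0.996. The Dkk1 promoter held overlapping stretches with TCF/LEF matches 117 and 98 bases before the start.
Dkk1, chr19:30549585-30549635, minus strand: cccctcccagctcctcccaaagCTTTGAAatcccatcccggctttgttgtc
Dkk1, chr19:30549566-30549616, minus strand: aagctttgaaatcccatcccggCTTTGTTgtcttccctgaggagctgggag

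Dkk2, an inhibitor that keeps mouse footpad skin hairless, read 7.75, 7.69, 7.74 and 7.89 on the arrays labelled Pparg null, against 7.80, 7.70, 7.49 and 7.71 on control arrays. Its difference of 0.094 (95% confidence interval -0.071 to 0.26) rested on a low control array 3 and a high labelled-null array 4, and leaving out 1 array gave 0.032 to 0.13. Dkk4, an inhibitor made in hair placodes, read 6.69, 6.79, 6.75 and 6.90 on the arrays labelled Pparg null, against 6.84, 6.60, 6.50 and 6.79 on control arrays. Control array 1 lay above all but labelled-null array 4, control arrays 2 and 3 lay below the whole labelled-null group, and the difference was 0.10 (95% confidence interval -0.086 to 0.29), with 0.038 without control array 3 and 0.15 without control array 1. For Dkk1, Dkk2 and Dkk4 alike, labelled-null array 4 was the highest of the 8 arrays. Dkk3, a divergent Dickkopf, differed by -0.023.

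The Wnt-binding inhibitors differed by -0.12 (Sfrp2), -0.055 (Sfrp1), -0.039 (Sfrp5), -0.037 (Sfrp4) and -0.024 (Wif1). Sfrp2 read 11.21, 11.19, 11.25 and 10.68 on the arrays labelled Pparg null, against 10.96, 11.25, 11.42 and 11.16 on control arrays. As with Fzd4 and Fzd7, the lowest value of each group was on labelled-null array 4 and control array 1; the 95% confidence interval was -0.42 to 0.19. Sfrp5, described as an adipokine in mice, read 6.13 to 6.50 on the arrays labelled Pparg null and 6.27 to 6.60 on control arrays.

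**Figure D3:**
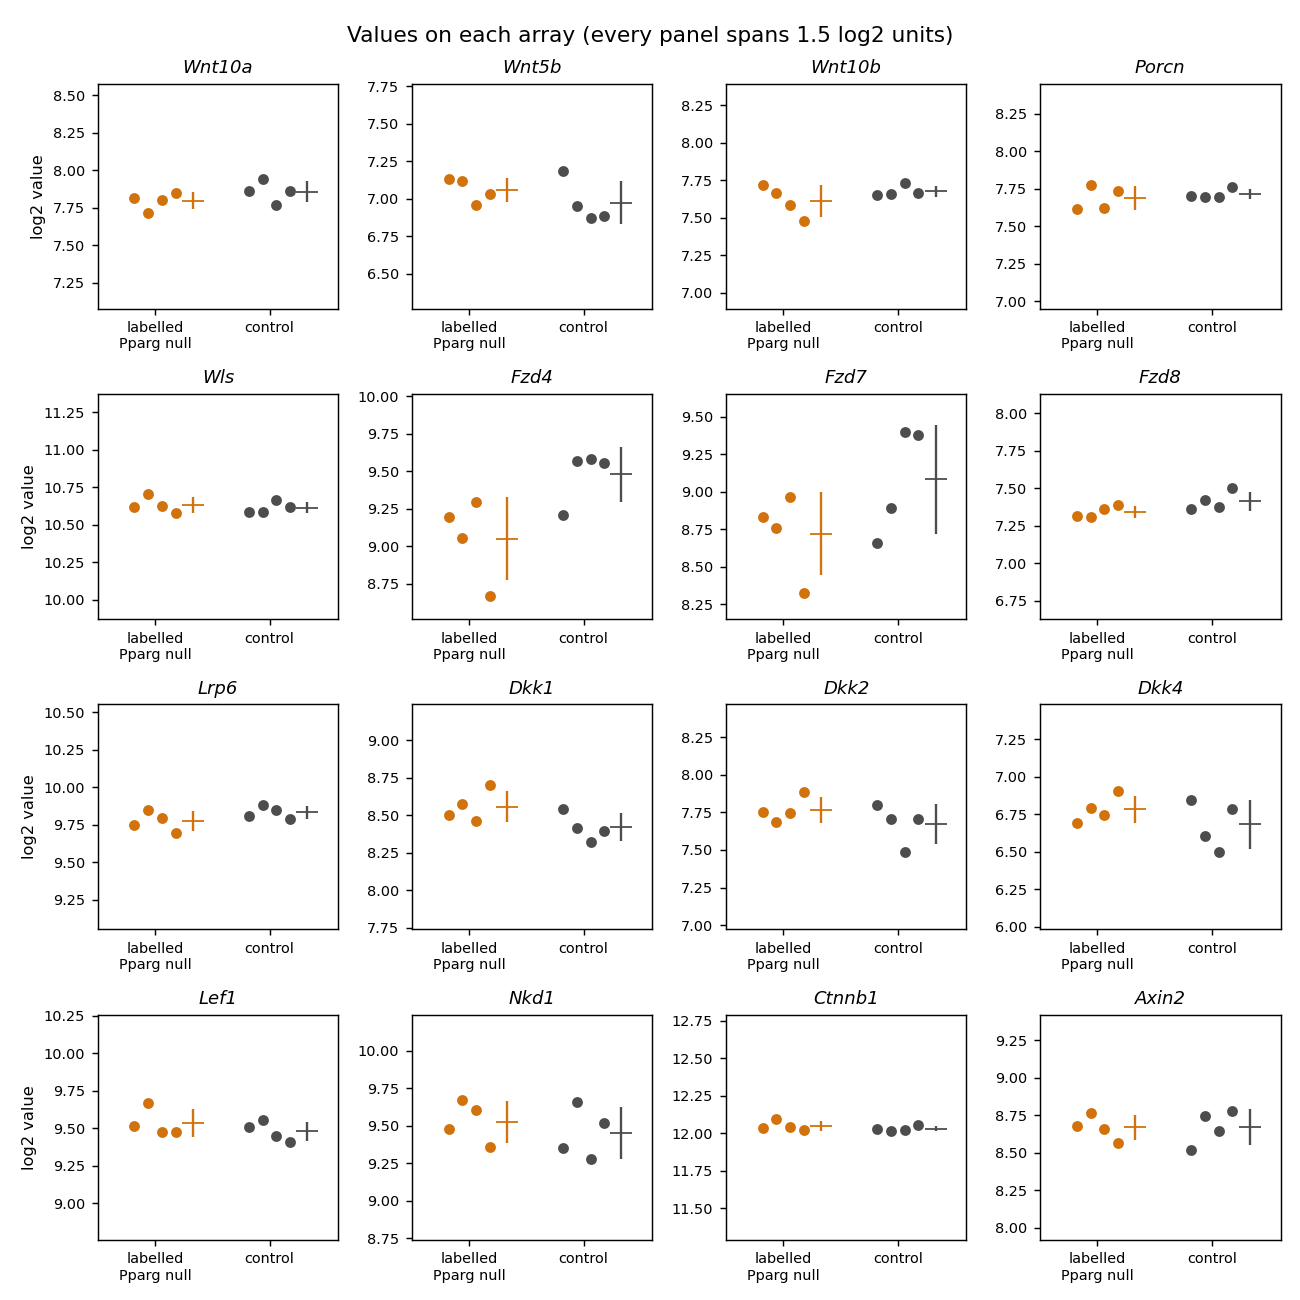
Log2 values of 16 Wnt genes on each array (points), with mean and SD of each group (bars, n = 4 each); every panel spans the same number of log2 units. Points of the groups overlap in every panel, and Fzd4 and Fzd7 spread most.

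Beta-catenin, Lef1 and the feedback genes had small differences, with intervals that reached no farther than 0.29 from 0. Of 5 tested, 1 lay below control and 4 above (median 0.023), with 0 past the threshold in limma and 0 at an unadjusted p under 0.05. Axin2, a negative regulator and widely used target of beta-catenin, read 8.68, 8.77, 8.66 and 8.56 on the arrays labelled Pparg null, against 8.52, 8.75, 8.64 and 8.78 on control arrays. Its difference was -0.0030 (95% confidence interval -0.16 to 0.15), and the sign turned with cyclic loess (0.0016) and with array weights (0.014).

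Ctnnb1, which encodes beta-catenin, read 12.03, 12.09, 12.04 and 12.02 on the arrays labelled Pparg null, against 12.03, 12.02, 12.02 and 12.05 on control arrays. With a pooled SD of 0.025 it varied less between arrays than any other member, and the difference was 0.017 (95% confidence interval -0.078 to 0.11). Lef1, the DNA-binding partner of beta-catenin in hair follicles, read 9.51, 9.67, 9.47 and 9.47 on the arrays labelled Pparg null, against 9.51, 9.55, 9.45 and 9.41 on control arrays, a difference of 0.052 (95% confidence interval -0.083 to 0.19) that was 0.0062 without labelled-null array 2. The Lef1 promoter held a TCF/LEF match 147 bases before the start.
Lef1, chr3:131156125-131156175, plus strand: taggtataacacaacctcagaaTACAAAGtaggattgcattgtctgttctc

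Nkd1, a Wnt-induced inhibitor that binds Dishevelled, read 9.48, 9.67, 9.60 and 9.35 on the arrays labelled Pparg null, against 9.35, 9.66, 9.27 and 9.52 on control arrays. The difference was 0.075 (95% confidence interval -0.14 to 0.29), with 0.016 without control array 3 and 0.14 without control array 2. Its relative Nkd2 differed by 0.023.

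The rest of the pathway, 69 genes outside the 47, gave 68 tested genes, 0 past the threshold in limma and 2 with an unadjusted p under 0.05, which is 2.94% beside 3.61% of all genes. These 2, Rspo3 and Bcl9l, are named below as the first of their lists and not as a result about the pathway. Of the 68, 47 lay below control and 21 above (median -0.028, range -0.21 to 0.13), where 50.3% of all genes lay below. Rspo3, which strengthens Wnt signals, came first among 12 secreted or membrane-bound modulators. It read 8.82, 8.90, 8.72 and 8.85 on the arrays labelled Pparg null, against 8.65, 8.66, 8.73 and 8.70 on control arrays. The difference was 0.13 (exact permutation p = 0.0571; limma adjusted p = 0.9995). Its relative Rspo1 differed by -0.19. Of 24 intracellular components, 18 lay below control. Bcl9l, a co-activator that binds beta-catenin, read 9.34, 9.26, 9.26 and 9.18 on the arrays labelled Pparg null, against 9.32, 9.49, 9.38 and 9.50 on control arrays, a difference of -0.16 (exact permutation p = 0.0571; limma adjusted p = 0.9995). Pygo2, which links Bcl9 proteins to chromatin, differed by -0.14. For both Rspo3 and Bcl9l 1 labelled-null and 1 control value crossed.

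The 5 genes for R-spondin receptors and receptor turnover all lay below control (median -0.063), where 50.3% of all genes did. In limma 0 of the 5 had an unadjusted p under 0.05. Lgr6 differed by -0.21 and Lgr4 by -0.13, both lowest on labelled-null array 4, while Lgr5 differed by -0.055 and Znrf3 by -0.027. Of 14 planar polarity and non-canonical receptor genes, 9 lay below control; Ror2, a receptor of Wnt5a, differed by 0.099 and Celsr1, an atypical cadherin of planar polarity, by -0.074. Of 13 known target genes, 7 lay below control and 6 above (median -0.025), and the smallest unadjusted p belonged to Msx1 (-0.14) and Ccnd1 (-0.12), cyclin D1. Neither difference passed limma at an unadjusted p of 0.05.

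**Figure D4:**
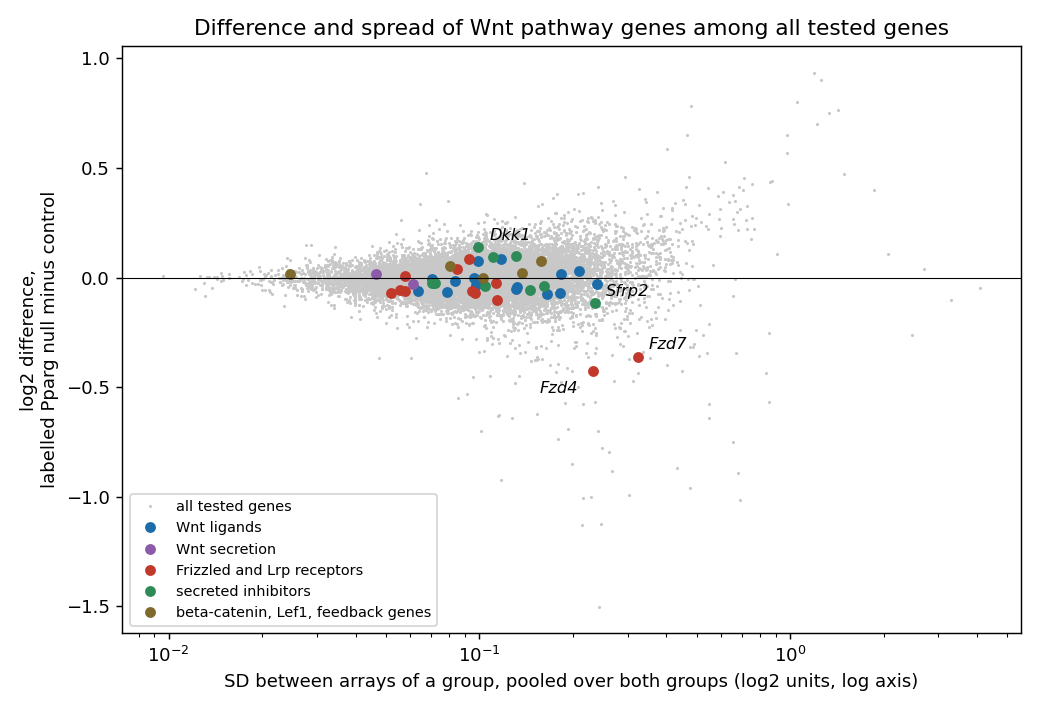
Log2 difference (vertical axis) against the SD between arrays of a group, pooled over both groups (horizontal log axis), for all 15174 tested genes (grey) and the Wnt genes (coloured by role). Fzd4 and Fzd7 lie below the band that holds the other Wnt genes, at pooled SDs of 0.23 and 0.32.

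The spread of the Wnt genes between arrays of a group was that of the typical gene, with a median pooled SD of 0.099 over members and 0.098 over all genes. Fzd7 (0.32), Wnt2 (0.24), Sfrp2 (0.24) and Fzd4 (0.23) varied most, each more than at least 95.03% of all genes. Array by array, labelled-null array 4 was the farthest from its group mean in 24 of 45 members (53.3%), beside 40.3% of all genes. It held the lowest of the 8 values in 13 members and the highest in 7. Control array 1 was the farthest of its group in 15 members (33.3%), beside 28.4% of all genes. For control array 3 it was 14 members (31.1%), beside 24.6% of all genes. Over all genes outside the X and Y chromosomes, the first principal component gave labelled-null array 4 a score of -21.7, beside -8.62 (control array 1) to 9.02 (labelled-null array 3) for the others.

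**Figure D5:**
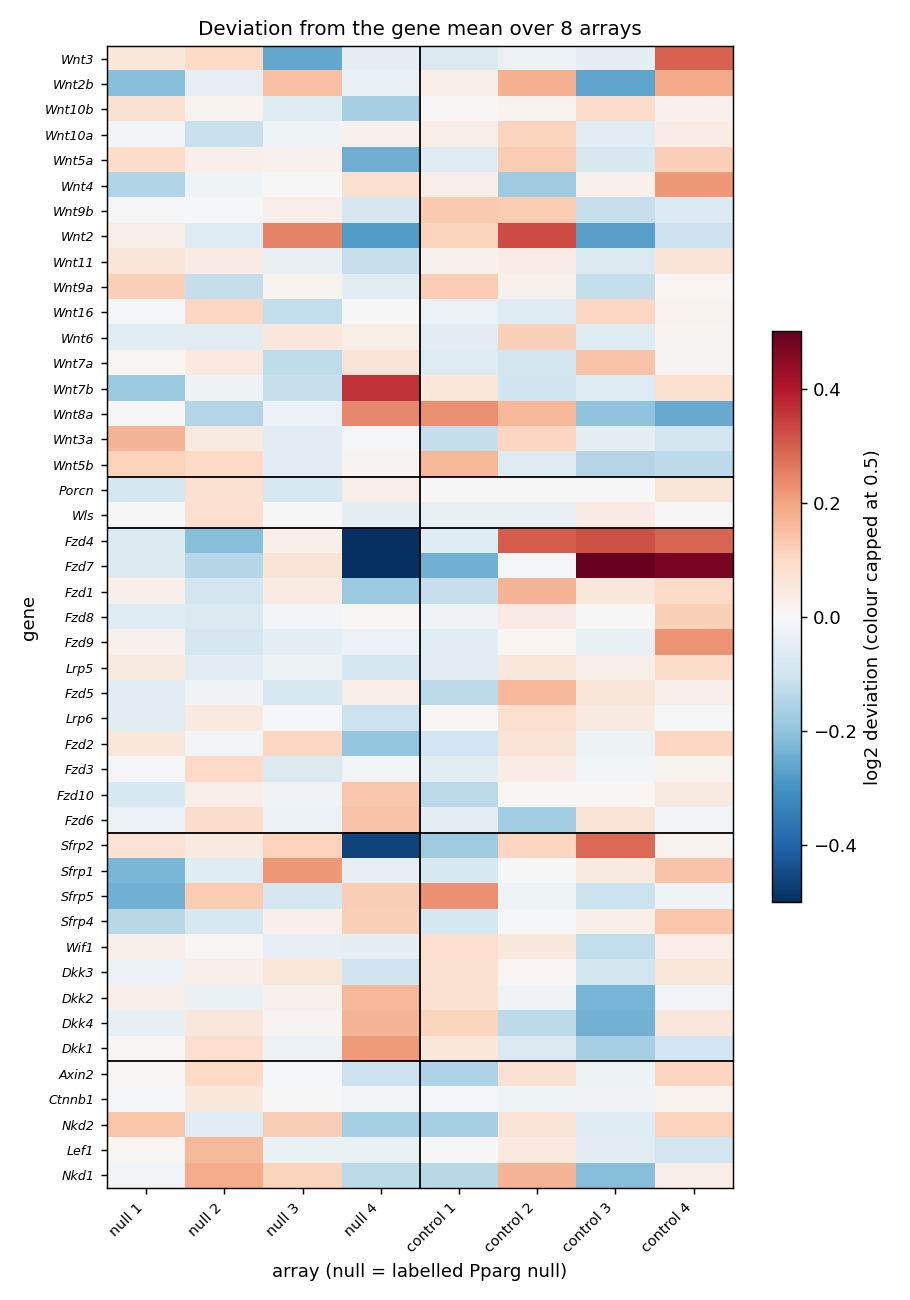
Log2 deviation of each tested Wnt gene (rows, grouped by role) from its mean over 8 arrays (columns, null = labelled Pparg null; colour capped at 0.5). The darkest cells are Fzd4, Fzd7 and Sfrp2 on labelled-null array 4 and Fzd7 on control arrays 3 and 4.

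Single arrays set how many members had an unadjusted p under 0.05. Without control array 1, 5 members had an unadjusted p under 0.05 in limma, namely Fzd4, Fzd7, Fzd1, Dkk1 and Wnt5b, where 4.18% of all genes did. Without labelled-null array 3 there were 2, Fzd4 and Dkk1, where 3.85% of all genes did. Without any other single array it was Fzd4 alone, beside 2.97% to 4.45% of all genes. With control array 1 and labelled-null array 4 both left out, Fzd4, Fzd7 and Wnt5b were under 0.05, beside 4.19% of all genes. The values of 6 members then did not overlap between groups, beside 8.32% of all genes. Leaving out an array that lies far off narrows the spread, so these counts are no support for a difference. In none of these fits did a member pass the adjusted threshold.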

How the data were processed

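RNA of full-thickness skin was amplified from 100 ng and hybridised to 1 single-colour Affymetrix array per embryo, per the labels' protocols. The submitters' processing notes name RMA and Affymetrix Expression Console as the source of the deposited log2 values; for versions and the annotation build, nothing is given in the sources used here. RMA quantile-normalizes arrays, so a shift of all genes together cannot be seen. The number of arrays limits the precision.

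Clusters (35556) were named where the annotation gave 1 symbol (21789; 1621 had several, 12146 none), updated through RefSeq for 21698. Testing required a value over an array's 30th percentile on 4 arrays or more. limma 3.58.1 (R 4.3.3) fitted the groups (lmFit, eBayes), and two-sided p-values were adjusted by Benjamini-Hochberg over all tested genes, with a threshold of 0.05. On simulated data with 15174 genes it recovered 81.0% of changes of 0.5 and 97.6% of changes of 1; with fewer true changes the adjustment is stricter, so these shares do not carry over.

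Values on every array are given for the 3 members of each role with the smallest p and members with an unadjusted p under 0.05. They are also given for Axin2, Lef1, Ctnnb1, Wls, Lrp6 and Wnt10b. Sfrp2, given by array, and Sfrp5 and Wnt7b, given by ranges, were added after their values were seen. From each wider list the 2 genes with the smallest p are named. Of these, Rspo3 and Bcl9l, with an unadjusted p under 0.05, are given by array. The members and lists were chosen with earlier results of these data known. Alternatives were other filters, scalings, priors, weights, cluster rules, an Xist covariate, a replicate block and arrays left out. Deviations from the group means, compared between arrays of the same replicate number across all tested genes, correlated at r = -0.31, 0.20, 0.050 and -0.030, so the numbers did not pair the arrays.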

Additional observations from a re-analysis of the deposited data

Results flagged for a closer look

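In 2 of 32 groups of 4 values, a single array stood far off; by chance about 1 in 20 groups does so. Control array 1 read 9.21 for Fzd4, and its group otherwise ran from 9.55 to 9.58 (the gap to the nearest array was 0.922 of the whole range). For Porcn, where the arrays labelled Pparg null read 7.62 to 7.78, control array 4 read 7.76 and the rest of its group 7.70 (gap 0.93 of the whole range).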

How the results depend on the processing

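No member and no other pathway gene passed the adjusted threshold under any setting tried, an adjusted p of 0.1 included. The count over all genes, 18, was 11 with Xist as a covariate, 1 when each transcript cluster was tested separately, 1 with a replicate block and 3 to 15 with 1 array left out. With the replicate block Fzd4 kept -0.43 (limma p = 0.0156), and none of the arrays had its highest correlation with the array of the same number. Leaving out 1 array gave 1 to 5 members with an unadjusted p under 0.05, beside 2.97% to 4.45% of all genes, and 0 to 4 members whose groups do not overlap, beside 4.13% to 5.32% of all genes; with labelled-null array 4 and control array 1 both left out these were 3 and 6, beside 4.19% and 8.32% of all genes. With 1 array left out several small differences moved by more than 1.5 times, among them Nkd1 (0.016 to 0.14), Lef1 (0.0062 to 0.077), Ctnnb1 (0.0022 to 0.025), Porcn (-0.058 to -0.0045), Wnt10a (-0.091 to -0.035), Wnt5b (0.052 to 0.16) and Dkk4 (0.038 to 0.15). Of 303 values of the 16 members that the rule above gives by array, Sfrp2 not included, 297 kept their sign. Changing the filter, prior, replicate block or cluster rule cannot alter these differences, and fits with arrays left out share most arrays. The count is therefore no measure of support. Axin2 turned with cyclic loess (0.0016) and array weights (0.014) and ran from -0.055 to 0.033 with 1 array left out; Wls ran from -0.0070 to 0.036. Signal near the filter limits Wnt8a, and Wnt1 and Wnt8b lay below it.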
